A study of Mus musculus with 33 samples.

Results

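The genes described here are 48 genes of S phase and DNA replication, chosen by gene symbol from textbook roles and found, all 48, among the 25988 genes of the count table. Of these, 29 passed a minimum count and were tested one by one, and the other 19 were too low for that and are given by their summed level and their raw counts. The data are 33 liver RNA libraries made from the 3' ends of transcripts, from male C57BL/6J mice. The labels give their age as 13 to 18 weeks, which the study's methods state as the age at virus injection, before the tamoxifen course. The study asked what lowering the glucose-sensing transcription factor ChREBP (gene Mlxipl) does to a liver that lacks glucose-6-phosphatase, the enzyme missing in glycogen storage disease type Ia. The groups were shChREBP/L-G6pc-/- (G6PCp, 9 libraries), shSCR/L-G6pc-/- (G6PC, 8 libraries), shChREBP/L-G6pc+/+ (WTp, 8 libraries) and shSCR/L-G6pc+/+ (WT, 8 libraries). The shRNAs, shChREBP against ChREBP and shSCR (shScramble in the labels) of scrambled sequence, were delivered by an adeno-associated virus. Every mouse carried the floxed G6pc allele, received virus and received tamoxifen, so the L-G6pc+/+ mice differ by the absence of the Cre. This Cre depends on tamoxifen, is under the albumin promoter and acts in hepatocytes. Livers were taken 10 days after the last tamoxifen injection. Nothing in the labels says that each library is a separate mouse, so n counts libraries and the p-values measure the spread between libraries.

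The libraries held 1497843 to 3546852 counts (median 2141043), and levels are given as CPM, counts per 1000000 counts of the library after scaling by edgeR's TMM factors. Mlxipl itself was lower in G6PCp than in G6PC (log2 fold change -0.57 ± 0.13 SE, edgeR adjusted p = 0.00318) and lower in WTp than in WT (-0.55 ± 0.13, adjusted p = 0.0107). The 3' tags of G6pc gave no check of the genotype, with a log2 fold change of 0.56 ± 0.32 in G6PC against WT (edgeR adjusted p = 0.445). Their place relative to the deleted part is not given in the sources used here. Pklr, a ChREBP target, was higher in G6PC than in WT (1.35 ± 0.17, edgeR adjusted p = 9.56e-07). On the first principal component of all tested genes 4 of the 9 G6PCp libraries (s29, s30, s32 and s33) lay at -35.5 to -26.8, apart from the other 5 at -7.65 to 1.52. WTp library s13 had the highest summed level of the 48 genes of any library. Calls that changed without s13 or without the 4 libraries are given beside the results or in the paragraph on leaving these libraries out.

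Cells copy their DNA once per cycle, in S phase. In G1 the origin recognition complex with Cdc6 and Cdt1 loads the ring-shaped MCM2-7 helicase onto origins. At the start of S phase, cyclin E with its kinase and the Cdc7-Dbf4 kinase fire these origins. Cdc45 and the GINS complex join MCM2-7 to form the active helicase, and polymerases, the sliding clamp PCNA and its loader RFC follow. E2F factors switch on most of these genes as a cell leaves quiescence. Adult hepatocytes are mostly quiescent and polyploid, keep low levels of these transcripts, and can re-enter the cycle after injury or loss of tissue.

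The promoters of 4 members are shown because the results turn on these genes. Mcm6 and Rrm2 had all G6PCp libraries above every WT library, Mcm5 was also higher, and Mcm10 had a fold change of the other sign. RefSeq windows of 250 bases before to 50 bases after the start site (build GRCm38.p6) were found for 39 of the 48 members, and Usp1, Gins4, Prim2, Pole, Mcm4, Gins1, Gins2, Ccne2 and Rfc2 had none. Only the 250 bases before the start are printed, 5' to 3' on the strand of the gene, with capitals marking matches to the E2F motif letters TTTCCCGC, TTTCGCGC, TTTGGCGC or TTTGCCGC on either strand. They lie at chr1:128359706-128359955 (minus strand) for Mcm6, chr8:75109259-75109508 (plus strand) for Mcm5, chr12:24708004-24708253 (plus strand) for Rrm2 and chr2:5012792-5013041 (minus strand) for Mcm10.
Mcm6: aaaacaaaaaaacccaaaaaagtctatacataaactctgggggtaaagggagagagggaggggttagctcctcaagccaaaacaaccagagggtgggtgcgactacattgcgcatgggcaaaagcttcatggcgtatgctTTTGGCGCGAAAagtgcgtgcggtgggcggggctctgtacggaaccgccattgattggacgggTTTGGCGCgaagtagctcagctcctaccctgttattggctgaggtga
Mcm5: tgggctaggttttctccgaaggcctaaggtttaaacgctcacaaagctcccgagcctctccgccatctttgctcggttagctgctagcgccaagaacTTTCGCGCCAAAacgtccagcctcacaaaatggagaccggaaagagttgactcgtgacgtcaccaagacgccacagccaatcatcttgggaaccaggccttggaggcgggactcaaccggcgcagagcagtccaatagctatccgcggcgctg
Rrm2: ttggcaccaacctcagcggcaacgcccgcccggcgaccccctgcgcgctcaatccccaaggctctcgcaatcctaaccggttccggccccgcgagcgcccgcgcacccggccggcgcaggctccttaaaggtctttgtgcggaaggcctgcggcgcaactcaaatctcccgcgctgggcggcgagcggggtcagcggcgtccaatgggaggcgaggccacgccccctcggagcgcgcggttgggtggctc
Mcm10: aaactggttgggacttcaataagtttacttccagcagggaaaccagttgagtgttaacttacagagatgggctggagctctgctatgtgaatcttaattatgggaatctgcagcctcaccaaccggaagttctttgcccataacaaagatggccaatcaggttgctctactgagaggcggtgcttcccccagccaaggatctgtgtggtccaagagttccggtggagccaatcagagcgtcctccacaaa
The Mcm6 window held 3 matches, at 110, 106 and 47 bases before the start, of which the first 2 overlap, and the Mcm5 window held 2 overlapping matches at 153 and 149 bases before it. No E2F match of these letters lay in the printed Rrm2 and Mcm10 stretches. Over the whole 300-base windows, E2F letters were found in 14 of 39 members (35.9%), against 2.6% of the 27025 genes with a window: Mcm3, Mcm5, Mcm6, Mcm7, Orc1, Cdc6, Cdt1, Gins3, Pola1, Pole2, Rfc3, Lig1, Uhrf1 and Dnmt1. A CCAAT box (CCAAT), bound by NF-Y, was found in 24 of 39 members (61.5%), against 41.1% of genes, and a GC box (GGGCGG), bound by Sp1, in 30 of 39 (76.9%), against 38.2%. The E box CACGTG, the core letters bound by many helix-loop-helix factors including ChREBP with Mlx, was found in 7 of 39 (17.9%: Pola2, Rfc1, Rpa1, Fen1, Lig1, Tyms and Chaf1a), against 8.09%. The CHR letters TTTGAA or TTTAAA, common in mitotic genes, were found in 10 of 39 (25.6%), against 30.6%. All motifs were read on both strands, members with more than 1 window counted once, and a match is only a match of letters. The shares over all genes include genes not read in liver, so that background is not matched to the members.

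The 48 genes together were highest in G6PCp livers. Their summed level was 634 ± 71.9 CPM in G6PCp (SD, n = 9), 549 ± 78.9 CPM in G6PC, 545 ± 106 CPM in WTp and 488 ± 23.01 CPM in WT (n = 8 each). The lowest, median and highest libraries were 553, 597 and 751 CPM in G6PCp and 466, 529 and 712 CPM in G6PC. They were 476, 518 and 800 CPM in WTp and 442, 488 and 514 CPM in WT. All 9 G6PCp libraries therefore lay above every WT library, while G6PCp overlapped G6PC and WTp. The G6PC and WTp medians (529 and 518 CPM) were also above the highest WT library (514 CPM). The libraries above it were s17, s19, s20, s22, s23 and s24 of G6PC and s11, s13, s15 and s16 of WTp. The spread itself was wider away from WT: 1 G6PC library (s19, 712 CPM) and 1 WTp library (s13, 800 CPM) reached the level of the highest G6PCp libraries. Without s13 the difference of WTp from WT in the log2 summed level was 0.06, in place of 0.14. In a bulk sample, more cells in S phase and more of these transcripts per cell cannot be told apart.

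**Figure D1:**
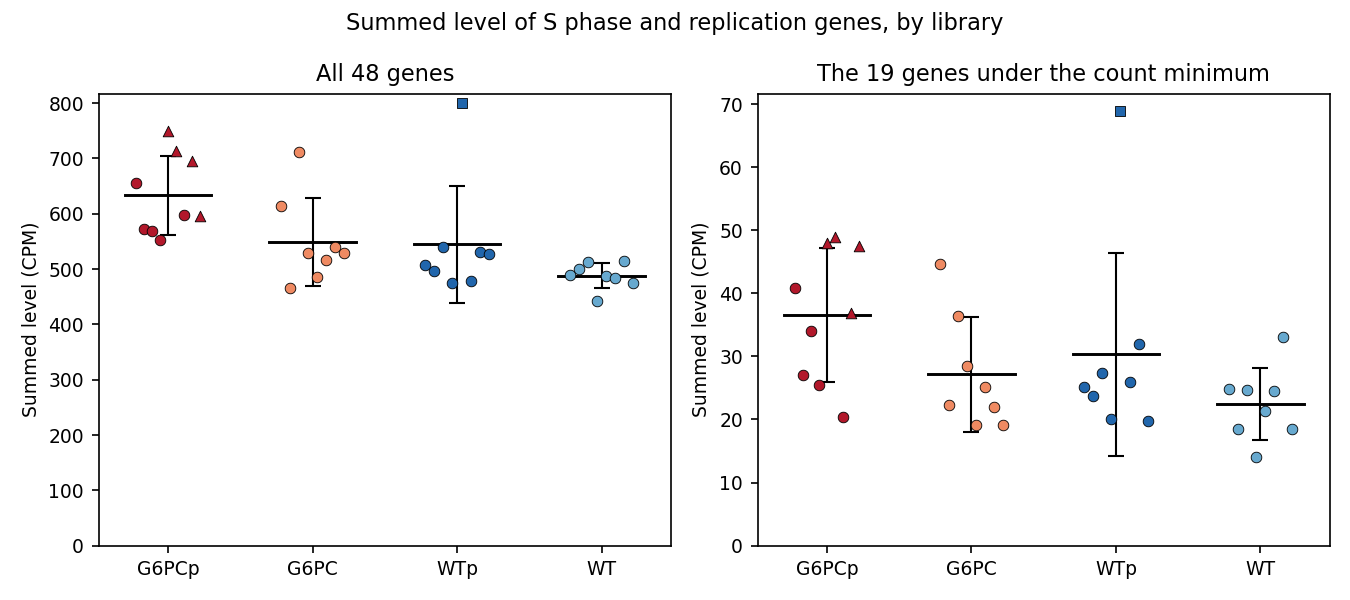
Summed level in CPM of all 48 genes (left) and of the 19 genes under the minimum count (right), 1 point per library, with the mean (line) and SD (bar) of each group. Triangles are G6PCp libraries s29, s30, s32 and s33, and the square is WTp library s13. For all 48 genes the G6PCp libraries lie between 553 and 751 CPM, above the 442 to 514 CPM of the WT libraries, and s13 stands at 800 CPM.

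Counted gene by gene, members passed the test (edgeR quasi-likelihood, adjusted p under 0.05 over 10179 genes) mainly in G6PCp against WT. There 9 of 29 members were higher and none was lower (31%), where 6.78% of all tested genes were higher and 6.36% were lower. In G6PCp against WTp 4 of 29 were higher (13.8%), where 5.99% of all genes were higher and 4.77% lower. The other 3 comparisons gave 1 higher member each (3.45%) and no lower one. In G6PCp against G6PC it was Mcm6, where 3.21% of all genes were higher and 4.17% lower. In WTp against WT it was Mcm7, where 2.01% were higher and 3.07% lower, and in G6PC against WT it was Cdt1, where 2.17% were higher and 1.04% lower. A share of 3.45% is close to these backgrounds and is not a result about the 48 genes as a group. Leaving out 1 library at a time, the 9 became 5 without s30, and the 1 member of G6PCp against G6PC became 4 without s31.

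The 29 members passed a minimum count that a high group alone can satisfy, so the same description was made over all 48 members with no minimum. In G6PCp against WT 8 of 48 were higher, 41 of 48 had a positive log2 fold change and the median was 0.52, with 4.53% of all 25988 genes changed in either direction. In G6PCp against G6PC 38 of 48 were positive with a median of 0.33 and 1 passed, where 2.4% of all genes changed in either direction. Of the 10179 genes that met the minimum, 50.7% were positive in G6PCp against WT and 51% in G6PCp against G6PC. For the 29, the median log2 fold changes were 0.42 in G6PCp against WT, 0.29 in G6PCp against G6PC and 0.36 in G6PCp against WTp. They were 0.26 in G6PC against WT and 0.12 in WTp against WT, beside medians of -0.01 to 0.03 over all tested genes. Without s13 the median in WTp against WT was 0.015, with 15 of 29 positive, beside 0.020 over all genes. These comparisons share groups of libraries, so their values are set side by side and are not separate evidence. No member passed the test of whether the shChREBP effect differed between genotypes, the difference of G6PCp - G6PC and WTp - WT (0 of 29 by edgeR, DESeq2 and limma-voom, where 0.0491% of all genes passed by edgeR). By edgeR 3 members had an unadjusted p under 0.05 there: Cdt1, Mcm10 and Rfc1.

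**Figure D2:**
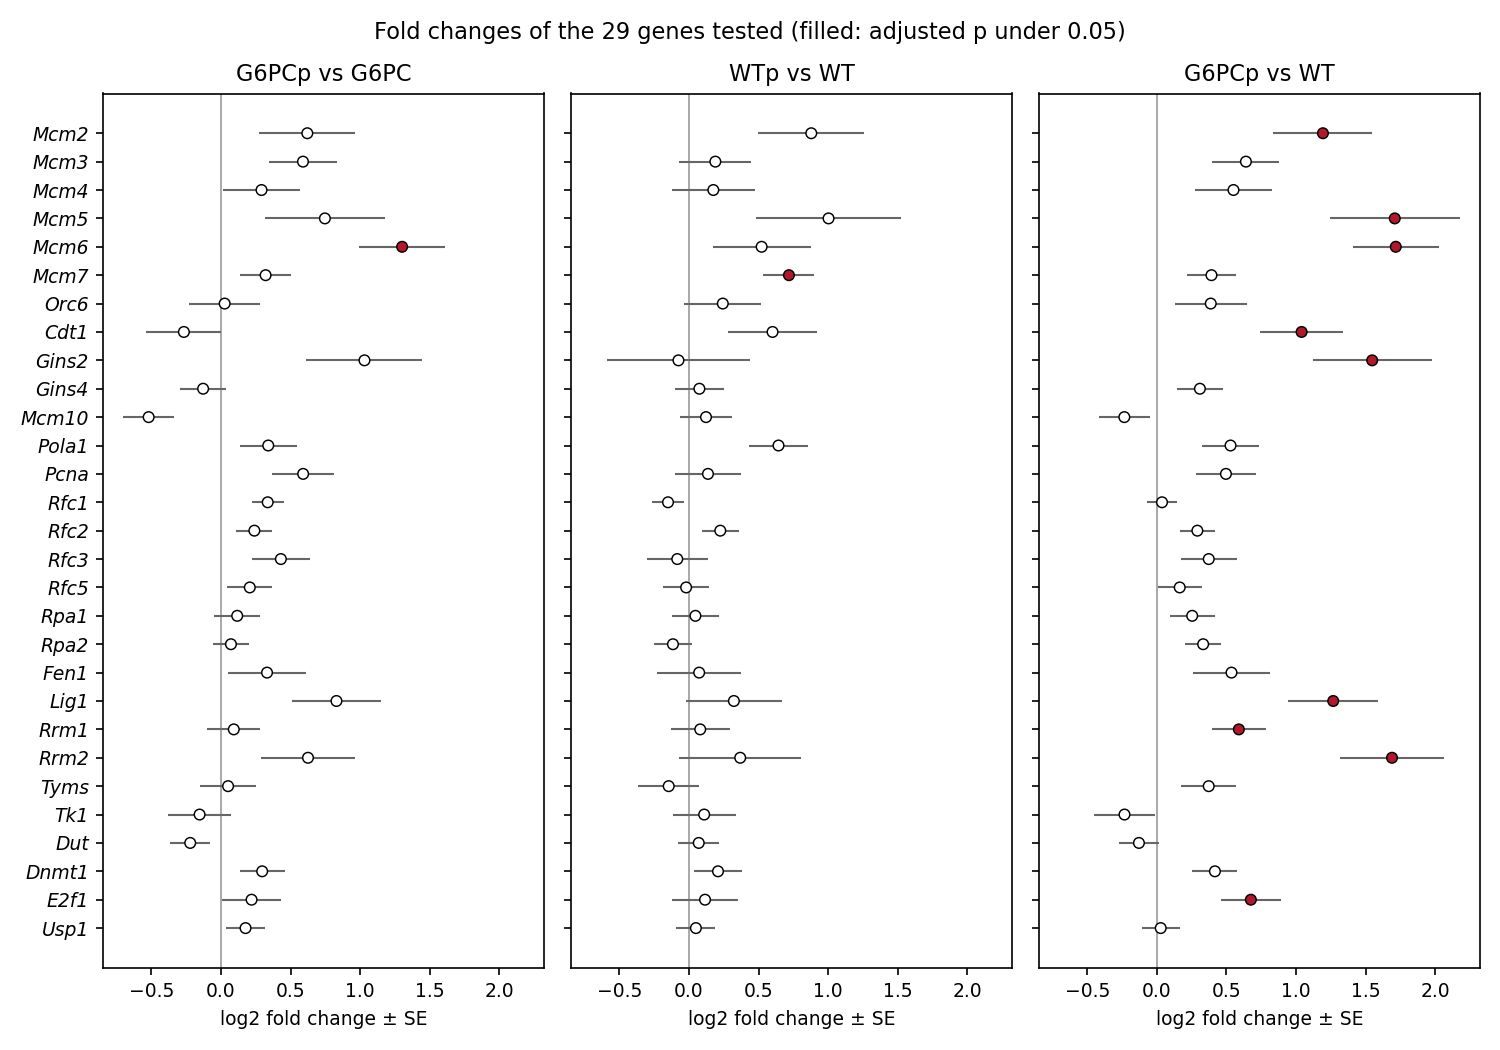
Log2 fold changes (points) with SE (bars) of the 29 members tested, in 3 comparisons, grouped by role from the helicase at the top to Usp1 at the bottom. Filled points had an edgeR adjusted p under 0.05. In G6PCp vs WT 9 points are filled, all to the right of 0, and 1 point is filled in each of G6PCp vs G6PC (Mcm6) and WTp vs WT (Mcm7).

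Of the MCM2-7 helicase, which unwinds DNA at the fork, 3 of 6 subunits were higher in G6PCp than in WT. Mcm6 was at 6.31, 10.7 and 19.9 CPM (lowest, median and highest) in G6PCp, 2.91, 4.38 and 8.84 CPM in G6PC, 1.15, 4.36 and 11.7 CPM in WTp and 0.903, 4.07 and 6.01 CPM in WT. Every G6PCp library was above every WT library and 6 of 9 were above the highest G6PC library. Mcm6 and Rrm2 were the 2 members of 48 with every G6PCp library above every WT library, as were 0.747% of all tested genes. The log2 fold change of Mcm6 was 1.72 ± 0.31 in G6PCp against WT (edgeR adjusted p = 0.000178). It was 1.30 ± 0.31 in G6PCp against G6PC (edgeR adjusted p = 0.00565) and 1.19 ± 0.30 in G6PCp against WTp (adjusted p = 0.00752). Neither single change was called for Mcm6, at 0.52 ± 0.35 in WTp against WT (edgeR adjusted p = 0.403) and 0.41 ± 0.36 in G6PC against WT (adjusted p = 0.664). The difference of the 2 shChREBP effects was 0.78 ± 0.47 (edgeR adjusted p = 0.541). Mcm6 rests on few reads, 285 counts over the 9 G6PCp libraries and 76 over the 8 WT libraries.

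Mcm5 was at 1.28, 4.85 and 10.2 CPM in G6PCp and at 0, 1.83 and 3.01 CPM in WT, with 8 of 9 G6PCp libraries above the highest WT library. Its log2 fold change in G6PCp against WT was 1.71 ± 0.47 (edgeR adjusted p = 0.0111), from 124 and 33 counts in all. With no minimum count Mcm5 was at 0.95 ± 0.54 in G6PC against WT and 0.98 ± 0.54 in WTp against WT (edgeR adjusted p = 0.58 and 0.463). It was at 0.75 ± 0.45 in G6PCp against G6PC and 0.72 ± 0.45 in G6PCp against WTp (edgeR adjusted p = 0.508 and 0.488). Mcm2 was at 3.28, 7.95 and 12.8 CPM in G6PCp and at 1.93, 2.86 and 7.02 CPM in WT (1.19 ± 0.36, edgeR adjusted p = 0.0197), and 5 of 9 G6PCp libraries were above the highest WT library. The Mcm2 call was lost without s30 (1.05, edgeR adjusted p = 0.0561) and on the deposited normalized table (1.13, limma adjusted p = 0.0553). With no minimum count Mcm2 was at 0.55 ± 0.37 in G6PC against WT and 0.85 ± 0.36 in WTp against WT (edgeR adjusted p = 0.644 and 0.30). In G6PCp against G6PC it was at 0.63 ± 0.33 (edgeR adjusted p = 0.407). Mcm3 was not called, at 15.4 ± 4.52 CPM in G6PCp and 9.98 ± 1.98 CPM in WT (log2 fold change 0.64 ± 0.24, edgeR adjusted p = 0.0734). Mcm4 was not called either, at 9.91 ± 3.47 CPM in G6PCp and 6.86 ± 1.46 CPM in WT (0.55 ± 0.28, edgeR adjusted p = 0.212).

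Mcm7 was the subunit called in the L-G6pc+/+ pair of groups. It was at 18.8, 24.5 and 29.6 CPM in WTp and 10.3, 14.9 and 21.1 CPM in WT, with 7 of 8 WTp libraries above the highest WT library (log2 fold change 0.72 ± 0.18, edgeR adjusted p = 0.0156). The Mcm7 levels of G6PCp (11.1, 20.96 and 27.4 CPM) and G6PC (8.59, 14.5 and 27.6 CPM) overlapped throughout (0.32 ± 0.18, edgeR adjusted p = 0.30). The difference of the 2 effects was -0.40 ± 0.26 (edgeR adjusted p = 0.5678). The Mcm7 call in WTp stood under all 47 other settings tried, the fit without s13 included. The 3' end of Mcm7 lies within Cops6 on the other strand, and the sources used here do not give the strand setting of the read counting. Cops6 had a log2 fold change of 0.12 ± 0.10 in WTp against WT (edgeR adjusted p = 0.492).

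**Figure D3:**
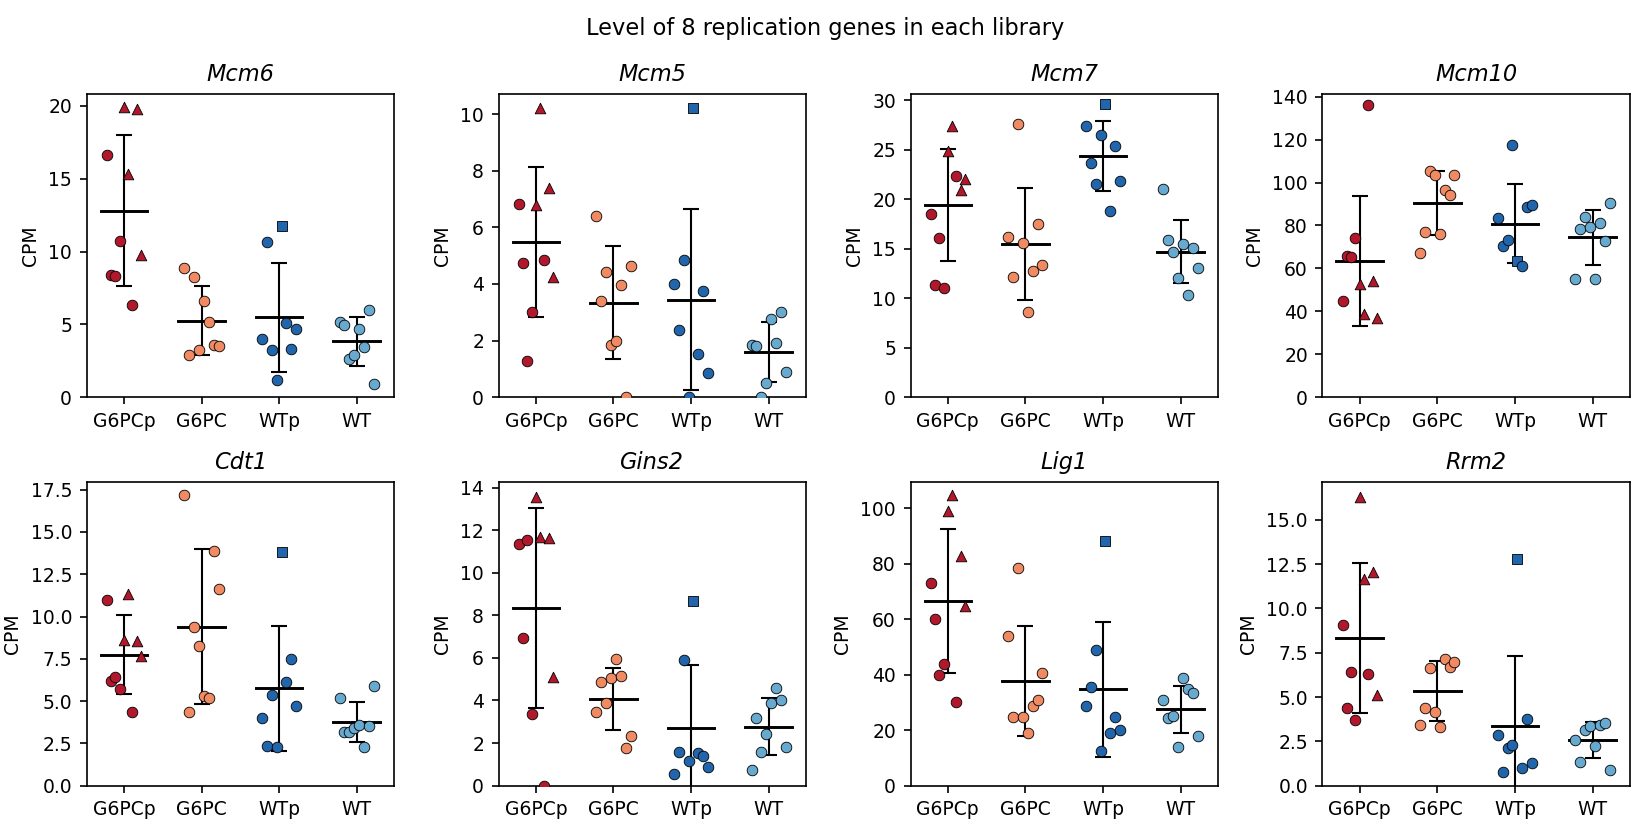
Level in CPM of 8 members in each library, with the mean (line) and SD (bar, cut at 0) of each group. Triangles are G6PCp libraries s29, s30, s32 and s33, and the square is WTp library s13. Mcm6 and Rrm2 have every G6PCp point above every WT point, Mcm7 is highest in WTp (18.8 to 29.6 CPM), and Mcm10 is at 36.9 to 74.3 CPM in 8 G6PCp libraries with 1 at 136 CPM.

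Among the origin licensing genes, Cdt1, the factor that brings MCM2-7 to origins, was the member higher in G6PC than in WT. It was at 4.37, 7.64 and 11.3 CPM in G6PCp, 4.36, 8.83 and 17.2 CPM in G6PC, 2.30, 5.04 and 13.8 CPM in WTp and 2.30, 3.44 and 5.87 CPM in WT. All 8 G6PC libraries were above the WT median and 5 of 8 above the highest WT library (1.31 ± 0.30, edgeR adjusted p = 0.00756). In G6PCp 7 of 9 libraries were above it (1.04 ± 0.30, edgeR adjusted p = 0.0149). Between G6PCp and G6PC its log2 fold change was -0.27 ± 0.27 (edgeR adjusted p = 0.613). Orc6, an origin recognition subunit, averaged 6.82 ± 1.99 CPM in G6PCp and 5.21 ± 1.25 CPM in WT (SD, n = 9 and 8) and passed in no comparison. Orc1 was all but unread, with 3 to 6 counts over each group, and Cdc6, the loader ATPase, had 38 counts over 9 G6PCp, 26 over 8 G6PC, 28 over 8 WTp and 10 over 8 WT libraries. Single libraries gave much of these Cdc6 counts: 12 of the G6PC counts were from s17 (14 in the others), 19 of the WTp counts from s13 (9 in the others) and 6 of the WT counts from s7 (4 in the others).

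Of the genes that turn the loaded helicase on, Gins2 and Mcm10 had fold changes of opposite sign. Gins2, a GINS subunit, was at 0, 11.4 and 13.6 CPM in G6PCp, 1.79, 4.36 and 5.95 CPM in G6PC, 0.571, 1.47 and 8.68 CPM in WTp and 0.739, 2.79 and 4.59 CPM in WT. Of the 9 G6PCp libraries 7 were above the highest WT library and 1, s31, had no Gins2 read. Gins2 was higher in G6PCp than in WT (1.55 ± 0.43, edgeR adjusted p = 0.0124) and than in WTp (1.62 ± 0.45, adjusted p = 0.0149), and by limma-voom neither passed (adjusted p = 0.194 and 0.12). Against WTp Gins2 was at 2.16 ± 0.45 without s13 (edgeR adjusted p = 0.00158), and with the compared groups alone the call was lost (1.63, edgeR adjusted p = 0.0704). Against G6PC its log2 fold change was 1.03 ± 0.42 (edgeR adjusted p = 0.126), and without s31 it was 1.19 (adjusted p = 0.0292). The 3' end of Gins2 lies within Gse1 on the other strand, which had log2 fold changes of -0.18 ± 0.23 and -0.31 ± 0.23 in the same 2 comparisons (edgeR adjusted p = 0.681 and 0.425). Gins4 averaged 11.7 ± 2.52 CPM in G6PCp and 9.45 ± 1.51 CPM in WT (SD, n = 9 and 8) and passed in no comparison.

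Mcm10, which helps to activate the helicase and to bring in polymerase alpha, was at a lower level in most G6PCp libraries. It was at 36.9, 54.3 and 136 CPM in G6PCp, 67.3, 95.4 and 106 CPM in G6PC, 61.0, 78.2 and 118 CPM in WTp and 55.0, 78.8 and 90.3 CPM in WT. Of the 9 G6PCp libraries 8 were below the G6PC median, at 36.9 to 74.3 CPM, and s31 was above every other library of the series. With all libraries the log2 fold change in G6PCp against G6PC was -0.52 ± 0.18 and did not pass (edgeR adjusted p = 0.0714). By limma-voom it was -0.62 (adjusted p = 0.0207), and without s31 it was -0.74 (edgeR adjusted p = 0.000609). Without s31 it was also called lower against WTp (-0.58, edgeR adjusted p = 0.00624) and against WT (-0.45, adjusted p = 0.0263). Library s31 was at the low end for other members, with the lowest G6PCp level of 7 of the 29 tested, among them Mcm6, Mcm3, Cdt1, Lig1 and E2f1. It also had the lowest summed level of mitosis genes in its group (90.7 CPM). Mcm10 made up 22.8% of the summed level in s31. Without Mcm10 the sum of the other 47 genes was 570 ± 88.5 CPM in G6PCp, 459 ± 76.2 CPM in G6PC, 464 ± 114 CPM in WTp and 414 ± 27.6 CPM in WT. All 9 G6PCp libraries (461 to 698 CPM) were still above every WT library (363 to 441 CPM). The G6PC (389 to 606.5 CPM) and WTp (358 to 736 CPM) libraries overlapped both.

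Of the clamp, its loader and the polymerases no tested member passed by edgeR in any comparison. By DESeq2 Rfc1 passed in G6PCp against G6PC (0.34, adjusted p = 0.0488) and Pola1 in WTp against WT (0.64, adjusted p = 0.0495). With library size as the only scaling, Pcna (edgeR adjusted p = 0.0357) and Rfc1 (0.0183) passed against G6PC and Pola1 (0.0433) passed in G6PCp against WT. Pcna, the sliding clamp, was at 5.13, 11.8 and 18.2 CPM in G6PCp and 3.30, 8.24 and 12.4 CPM in G6PC (0.59 ± 0.22, edgeR adjusted p = 0.0985), and the groups overlapped. Of the clamp loader, Rfc1 averaged 52.2 ± 7.69 CPM in G6PCp, 41.5 ± 5.08 CPM in G6PC, 45.8 ± 7.55 CPM in WTp and 50.9 ± 8.90 CPM in WT (SD, n = 9, 8, 8 and 8). Its log2 fold changes were 0.34 ± 0.11 in G6PCp against G6PC (edgeR adjusted p = 0.0607) and 0.04 ± 0.11 in G6PCp against WT (adjusted p = 0.886). Rfc2, Rfc3 and Rfc5, the smaller loader subunits that were tested, passed in no comparison. Pola1, the catalytic subunit of polymerase alpha, averaged 16.3 ± 3.54 CPM in G6PCp, 12.9 ± 5.33 CPM in G6PC, 17.8 ± 7.09 CPM in WTp and 11.2 ± 2.47 CPM in WT. Its log2 fold change in WTp against WT was 0.64 ± 0.21 (edgeR adjusted p = 0.0609).

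Lig1, the ligase that seals Okazaki fragments, was called with many more reads behind it, 1485 counts over the 9 G6PCp and 553 over the 8 WT libraries. It was at 30.1, 64.9 and 105 CPM in G6PCp, 19.2, 29.8 and 78.4 CPM in G6PC, 12.7, 26.7 and 88.3 CPM in WTp and 14.01, 28.1 and 38.7 CPM in WT. All but 1 of the G6PCp libraries were above the highest WT library (1.27 ± 0.32, edgeR adjusted p = 0.00811). Libraries s19 of G6PC (78.4 CPM) and s13 of WTp (88.3 CPM) were above the G6PCp median. Also within the G6PCp range were s17 (54.0 CPM), s24 (40.6 CPM) and s23 (30.9 CPM) of G6PC and s11 (48.9 CPM) and s10 (35.5 CPM) of WTp. Against G6PC Lig1 was at 0.83 ± 0.32 (edgeR adjusted p = 0.111) and against WTp at 0.94 ± 0.32 (adjusted p = 0.055), which without s13 became 1.30 ± 0.30 (adjusted p = 0.00423). Fen1, the flap nuclease that trims the fragments first, was not called (9.37 ± 3.05 CPM in G6PCp and 6.63 ± 2.46 CPM in WT). Of the single-strand binding protein, Rpa2 was at 29.2, 36.1 and 45.8 CPM in G6PCp and 19.3, 28.1 and 36.3 CPM in WTp (0.45 ± 0.13, edgeR adjusted p = 0.0207), a call lost without WTp library s16 (0.38, edgeR adjusted p = 0.0611). Rpa1 passed in no comparison.

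Of 5 genes of deoxynucleotide supply 2 were higher in G6PCp than in WT, both subunits of ribonucleotide reductase, the enzyme that makes deoxynucleotides. Rrm2, its S phase subunit, was at 3.68, 6.41 and 16.3 CPM in G6PCp, 3.30, 5.50 and 7.16 CPM in G6PC, 0.789, 2.23 and 12.8 CPM in WTp and 0.903, 2.87 and 3.51 CPM in WT. All 9 G6PCp libraries were above every WT library (1.69 ± 0.37, edgeR adjusted p = 0.00161), and against WTp, where s13 was above all but 1 of the G6PCp libraries, it was 1.32 ± 0.37 (adjusted p = 0.0154). Without s13 this was 2.05 ± 0.34 (edgeR adjusted p = 0.000102), and with the compared groups alone the call was lost (1.33, edgeR adjusted p = 0.0688). Rrm1, the large subunit, was at 8.34, 13.6 and 19.7 CPM in G6PCp and 5.42, 8.97 and 13.5 CPM in WT (0.59 ± 0.19, edgeR adjusted p = 0.0367). This Rrm1 call was lost in 13 of 47 other settings, among them no minimum count (adjusted p = 0.0641) and the loss of any 1 of WT libraries s1, s2, s3, s4 and s8 or G6PCp libraries s25, s29, s30 and s32 (edgeR adjusted p = 0.0511 to 0.0967). For Rrm1 3 of 8 G6PC libraries were also above the highest WT library. With no minimum count Rrm1 was at 0.48 ± 0.20 in G6PC against WT and 0.10 ± 0.19 in G6PCp against G6PC (edgeR adjusted p = 0.385 and 0.896). In WTp against WT it was at 0.06 ± 0.21. Tyms, which makes thymidylate, averaged 7.51 ± 2.29 CPM in G6PCp and 5.86 ± 0.889 CPM in WT and was not called. Tk1, the salvage kinase often used as an S phase marker, averaged 5.73 ± 0.870 CPM in G6PCp and 6.73 ± 3.14 CPM in WT (-0.23 ± 0.22, edgeR adjusted p = 0.56). Dut, which clears dUTP, averaged 19.2 ± 4.58 CPM in G6PCp and 21.1 ± 3.72 CPM in WT (-0.13 ± 0.14, edgeR adjusted p = 0.626). With Mcm10, Tk1 and Dut were the 3 tested members whose fold change in G6PCp against WT was negative.

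E2f1, a transcription factor that drives entry into S phase, was at 4.37, 10.6 and 13.2 CPM in G6PCp and 4.21, 6.80 and 9.02 CPM in WT. In G6PCp 7 of 9 libraries were above the highest WT library (0.68 ± 0.22, edgeR adjusted p = 0.031). The E2f1 call was lost in 10 of 47 other settings, among them no minimum count (adjusted p = 0.0625), the deposited normalized table (limma adjusted p = 0.0647) and the loss of any 1 of WT libraries s1, s6 and s8 or G6PCp libraries s29, s30 and s32 (edgeR adjusted p = 0.0518 to 0.0728). For E2f1 4 of 8 G6PC libraries were also above the highest WT library. With no minimum count E2f1 was at 0.44 ± 0.24 in G6PC against WT and 0.225 ± 0.22 in G6PCp against G6PC (edgeR adjusted p = 0.5425 and 0.63). In WTp against WT it was at 0.09 ± 0.24. The cyclins E were near the limit of detection: Ccne1 had 43 counts over 9 G6PCp, 16 over 8 G6PC, 33 over 8 WTp and 19 over 8 WT libraries. Ccne2 had 51 counts in G6PCp, 28 in G6PC, 19 in WTp and 16 in WT. In WTp most Ccne1 reads came from s13, at 10.2 CPM where the other 7 libraries had at most 2.15 CPM. Dnmt1, which copies DNA methylation onto the new strand, averaged 43.7 ± 8.43 CPM in G6PCp and 32.7 ± 8.48 CPM in WT (0.42 ± 0.16, edgeR adjusted p = 0.0837). Usp1, a deubiquitinase of PCNA and of crosslink repair, averaged 33.5 ± 5.02 CPM in G6PCp and 32.8 ± 6.97 CPM in WT (0.03 ± 0.14, edgeR adjusted p = 0.933). Chek1, the replication checkpoint kinase, had 36 counts over the G6PCp and 18 over the WT libraries. With no minimum count Chek1 was at -0.01 ± 0.49 in G6PCp against G6PC. In G6PC against WT it was at 0.79 ± 0.56 (edgeR adjusted p = 0.644), where G6PC library s17 alone had 10 counts.

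The 19 members under the minimum count were Orc1, Cdc6, Cdc45, Gins1, Gins3, Pola2, Prim1, Prim2, Pole, Pole2, Rfc4, Rpa3, Chaf1a, Chaf1b, Uhrf1, Slbp, Ccne1, Ccne2 and Chek1. All 19 together had 29 to 135 counts in a library (median 62). Their summed level was 36.5 ± 10.6 CPM in G6PCp, 27.2 ± 9.10 CPM in G6PC, 30.4 ± 16.1 CPM in WTp and 22.4 ± 5.74 CPM in WT (SD, n = 9, 8, 8 and 8). The libraries ranged over 20.4 to 48.9 CPM in G6PCp and 14.01 to 33.1 CPM in WT, so the groups overlapped. A mean of at least 0.5 CPM over all libraries was also used as the only minimum. This rule does not use the group labels, though a high group or library can still lift a gene over it. With it 47 members were tested and 9 were higher in G6PCp than in WT, where 9.56% of all genes changed. Among these was Chaf1a, the large subunit of the histone chaperone at the fork (1.36 ± 0.44, edgeR adjusted p = 0.0411, from 84 counts over the G6PCp and 28 over the WT libraries). Rrm1 was no longer called (edgeR adjusted p = 0.0514). Uhrf1, which brings Dnmt1 to new DNA, had 20 counts over the 9 G6PCp libraries and 2 over the 8 G6PC libraries, 7 of which had none, and did not pass (edgeR adjusted p = 0.115). Under the same rule Uhrf1 in G6PCp was at 0.27 ± 0.68 against WTp and 1.62 ± 0.77 against WT (edgeR adjusted p = 0.875 and 0.209). WTp library s13 alone had 7 Uhrf1 counts. At this depth smaller differences in these genes were not detectable.

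Most of the calls in G6PCp were lost when the 4 libraries that stood apart were left out, which also cuts the group to 5. Without s29, s30, s32 and s33 the number of members called fell to 0 in G6PCp against G6PC, where Mcm6 gave 0.97 (edgeR adjusted p = 0.203). It fell to 1 in G6PCp against WT, Mcm6 at 1.39 ± 0.35 (edgeR adjusted p = 0.019). In the same comparisons 0.923% and 2.88% of all genes were then called. The other 8 members called with all libraries kept a positive fold change against WT, 0.31 to 1.33, and did not pass. In G6PCp against WTp the only call left was Mcm7, lower at -0.62 ± 0.20 (edgeR adjusted p = 0.0421). Rpa2 was then at 0.40 ± 0.15 (edgeR adjusted p = 0.103), Gins2 at 1.28 ± 0.52 (adjusted p = 0.122), Mcm6 at 0.87 ± 0.34 (adjusted p = 0.109) and Rrm2 at 0.84 ± 0.41 (adjusted p = 0.21). The summed level of the 48 genes was 595 to 751 CPM in these 4 libraries and 553 to 656 CPM in the other 5, which all lay above every WT library. Leaving out s13 instead raised the number of members higher in G6PCp than in WTp to 9 and than in WT to 11, of 29, where 11.5% and 13.1% of all genes were then called in either direction. Gained against WTp were Mcm3 (edgeR adjusted p = 0.0231), Lig1 (0.00423), Rrm1 (0.0269), E2f1 (0.0262) and Tyms (0.0455). Gained against WT were Mcm3 (edgeR adjusted p = 0.0344) and Dnmt1 (0.0377). In s13 20 of the 29 tested members had their highest WTp level. This library also had the lowest hepatocyte (24010 CPM) and cholangiocyte (25.5 CPM) marker sums of its group. Its erythroid (7024 CPM), macrophage (2714 CPM), neutrophil (244.5 CPM) and stellate cell (545.2 CPM) marker sums were the highest of the group. Its lymphocyte and endothelial marker sums were at neither end. The part of these cell types in the values of s13 was not tested.

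**Figure D4:**
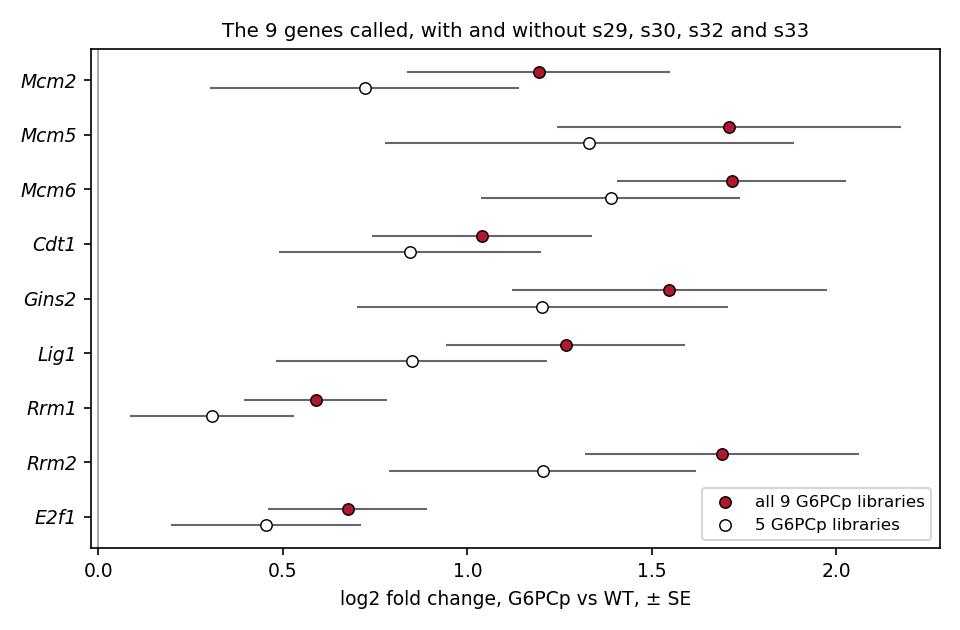
Log2 fold changes with SE of the 9 members called in G6PCp vs WT, with all 9 G6PCp libraries (filled) and with the 5 left when s29, s30, s32 and s33 are taken out (open). Every open point lies left of its filled point and right of 0, and the only one with an adjusted p under 0.05 is Mcm6 at 1.39.

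A wider list held 51 other replication genes, such as those of the Cdc7 kinase, of fork protection and of ribonucleotide removal. Of 32 tested, 4 were higher in G6PCp than in WT and none was lower, where 6.78% of all genes were higher. They were Dbf4, the activating subunit of the Cdc7 kinase that fires origins (1.0003 ± 0.23, edgeR adjusted p = 0.00255), and Samhd1, a dNTP hydrolase (0.47 ± 0.12, adjusted p = 0.00765). The others were Hells, a chromatin remodeller (1.06 ± 0.35, edgeR adjusted p = 0.0399), and Rnaseh2a, a subunit of the nuclease that removes ribonucleotides (0.58 ± 0.19, adjusted p = 0.039). Dbf4 was the only one of them also higher than in G6PC, at 19.7 ± 6.401 CPM in G6PCp and 10.3 ± 3.08 CPM in G6PC (SD, n = 9 and 8; 0.93 ± 0.24, edgeR adjusted p = 0.0102). In WTp against WT, Dna2, a nuclease of fragment processing, was the 1 gene of 32 called (0.66 ± 0.18, edgeR adjusted p = 0.0211). Over all tested genes 2.01% were higher in WTp against WT and 3.21% in G6PCp against G6PC. A single call of 32, as in these 2 comparisons, is near those shares. Without s29, s30, s32 and s33 only Dbf4 was left against WT (0.96 ± 0.26, edgeR adjusted p = 0.0355). Against G6PC 0 of 32 then passed, where 0.923% of all genes did, so this count is near that share. The median over the list with all libraries was 0.16 in G6PCp against WT, beside 0.01 over all tested genes.

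Of 26 regulators of the G1/S step 20 were tested, and 4 were higher in G6PCp than in WT and 0 lower, where 6.78% of all genes were higher and 6.36% lower. Ccnd1, cyclin D1, was at 142, 273 and 601 CPM in G6PCp and 86.8, 114 and 257 CPM in WT (1.13 ± 0.27, edgeR adjusted p = 0.00462). The others were Ccnd2, cyclin D2 (0.36 ± 0.11, edgeR adjusted p = 0.0174), their kinase Cdk4 (0.46 ± 0.15, adjusted p = 0.0402) and Cdkn1a. Cdkn1a, the p21 inhibitor of cyclin-dependent kinases, was at 35.6, 58.3 and 129 CPM in G6PCp, 21.5, 32.1 and 40.9 CPM in G6PC and 11.3, 34.4 and 53.1 CPM in WT. Its log2 fold change was 1.25 ± 0.35 against G6PC (edgeR adjusted p = 0.0224) and 1.23 ± 0.34 against WT (adjusted p = 0.0152). Rbl2, the p130 pocket protein of quiescent cells, was lower in G6PCp than in G6PC, at 9.68 ± 2.60 and 14.3 ± 3.58 CPM (-0.56 ± 0.17, edgeR adjusted p = 0.0384), and with no minimum count it did not pass. Without the 4 libraries no gene of this list passed in these 2 comparisons. With all libraries 2 of the 20 were higher and 1 lower in G6PCp against WTp, where 5.99% of all genes were higher and 4.77% lower. In WTp against WT 0 were higher and 1 was lower, where 2.01% and 3.07% of all genes were.

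Genes of mitosis, given beside the replication genes, were also higher in G6PCp. All 15 mitosis genes tested of a list of 28 were higher in G6PCp than in WT, where 6.78% of all tested genes were higher. Their median log2 fold change was 2.64, beside 0.42 for the 29 replication genes. In G6PCp against G6PC 7 of 15 were higher, where 3.21% of all tested genes were, with a median of 1.60, beside 0.29. The 15 passed a minimum that the high group alone can satisfy, and over all 28 with no minimum 24 were higher than in WT (median 2.65, beside 0.52 for the 48 replication genes) and 8 higher than in G6PC (median 1.61, beside 0.33). Without s29, s30, s32 and s33 14 were tested, 8 were higher than in WT (median 2.10) and 1, Cdc20, was higher than in G6PC (median 0.87). Their summed level was 336 ± 218 CPM in G6PCp, 118 ± 45.2 CPM in G6PC, 109 ± 112 CPM in WTp and 54.3 ± 26.2 CPM in WT (SD, n = 9, 8, 8 and 8). Mki67, the proliferation marker, was at 2.01, 4.38 and 13.6 CPM in G6PCp and 0, 1.01 and 5.01 CPM in WT (2.28 ± 0.68, edgeR adjusted p = 0.0217). It was not called against G6PC (0.51 ± 0.57, edgeR adjusted p = 0.656). The libraries with the most mitosis reads were s29, s32, s30 and s25 of G6PCp (454 to 692 CPM) and s13 of WTp (377 CPM). G6PC library s19 had a replication sum of 712 CPM with a mitosis sum of 158 CPM.

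**Figure D5:**
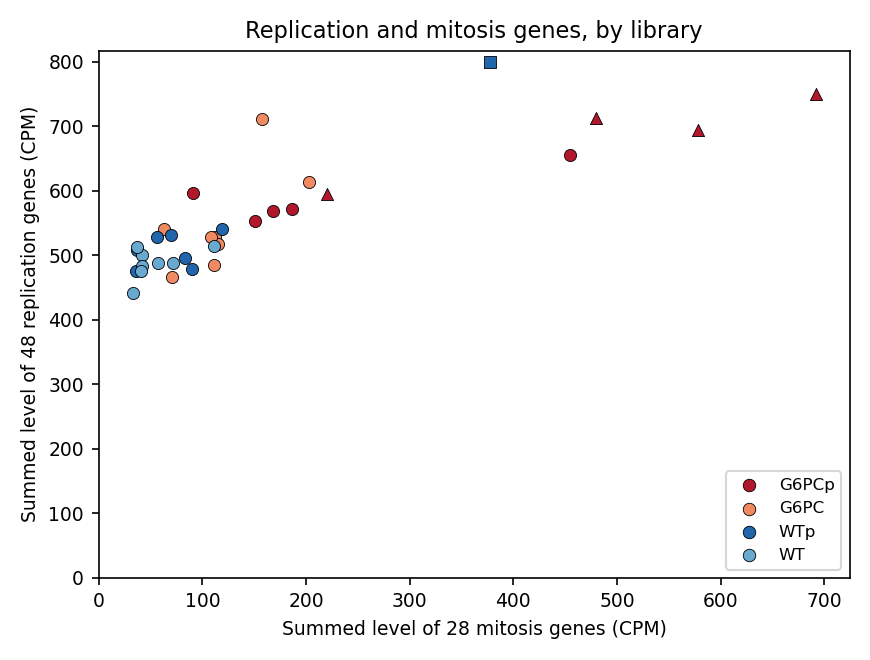
Summed level in CPM of the 48 replication genes (vertical) against that of 28 mitosis genes (horizontal), 1 point per library, colored by group. Triangles are s29, s30, s32 and s33 and the square is s13, at 377 CPM of mitosis genes and 800 CPM of replication genes. The WT libraries sit between 32.8 and 111 CPM of mitosis genes and between 442 and 514 CPM of replication genes.

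The tissue carried its label, with hepatocyte markers (Alb and 9 others) summing to 18990 ± 3894 CPM in G6PCp, 25160 ± 2393 CPM in G6PC, 28640 ± 4254 CPM in WTp and 32270 ± 2014 CPM in WT (SD, n = 9, 8, 8 and 8). The sum was lower in the 4 libraries that stood apart (13510 to 18260 CPM) than in the other 5 G6PCp libraries (19140 to 25420 CPM). Of 10 hepatocyte markers 6 were lower in G6PCp than in WT and 3 lower than in G6PC, where 6.36% and 4.17% of all tested genes were lower. Without the 4 libraries 1 of the 10, Alb, was lower than in WT and 0 than in G6PC. With no minimum count 3 of these 10 were lower than in WT and 2 lower than in G6PC. Macrophage markers were at 1878 ± 317 CPM in G6PCp, 1533 ± 466 CPM in G6PC, 1576 ± 599 CPM in WTp and 1316 ± 285 CPM in WT. In G6PCp 3 of 11 were higher than in G6PC and 3 of 11 higher than in WT, where 3.21% and 6.78% of all tested genes were higher. Without the 4 libraries 0 of 11 were higher in both. Only 0.923% of all genes then passed against G6PC, so a count of 0 there, for hepatocyte or macrophage markers, is near that share. Lymphocyte markers were few, at 8.49 to 24.1 CPM in G6PCp and 6.51 to 93.3 CPM in WT, and 0 of 8 stellate cell markers passed in these comparisons. What part cells other than hepatocytes had in the replication genes was not tested.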

How the data were processed

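Liver RNA of 33 libraries was sequenced from 3' ends (QuantSeq, single reads). Per the labels and the study's methods, the authors used HISAT for alignment to the GRCm38 genome, SAMtools for sorting and HTSeq-count for gene counts on an Ensembl annotation. The deposited count table holds these raw counts per gene and was used for all levels and tests. The deposited normalized table holds a linear signal, each count plus a constant times 1 number per library as its values show, and was used in 1 alternative. Gene names came from GENCODE M21 and promoters from RefSeq GRCm38.p6.

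Genes passing edgeR's filterByExpr (minimum count 10, minimum total 15, by group) were kept, 10179 in all. All 33 libraries entered 1 fit (R 4.3.3, edgeR 4.0.16: TMM, glmQLFit with robust estimation, glmQLFTest), with 6 contrasts and Benjamini-Hochberg adjustment over all genes tested at a threshold of 0.05. Alternatives used limma 3.58.1 and DESeq2 1.42.0, other scalings and filters, and each library left out. The scripts were tested on simulated data. The members, gene lists and rules were chosen with earlier results of these data known. Values are given for each member that passed in any contrast, for the member with the smallest p in G6PCp against G6PC and the most abundant member of each role, and for Pcna, Mcm2 to Mcm7, the cyclins E, E2f1, Cdt1, Cdc6, Rrm2, Tyms, Tk1 and Chek1. Of the other lists, up to 4 genes with the smallest p in G6PCp against G6PC were eligible, with Cdkn1a, Ccnd1 and Mki67, and other genes named behind a count of 5 or fewer were chosen after their values were seen. Totals of 1497843 to 3546852 counts limit low genes, and no interval was drawn from them.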

Additional observations from a re-analysis of the deposited data

Results flagged for a closer look

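Of 120 values tested for a library far from the rest of its group, 18 stood apart (15%). The cutoff passes about 1 in 20 only for independent values of normal spread. The sums hold the single genes and several genes had few reads, so these 18 are not set against chance.

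In WTp 9 of them were library s13, which had 800 CPM for all 48 genes (others 476 to 541), 731 CPM for the 29 tested genes (others 453 to 513) and 68.9 CPM for the 19 low genes (others 19.7 to 31.9). For single genes s13 had 10.2 CPM of Ccne1 (others 0 to 2.15), 9.7 CPM of Cdc6 (others 0 to 2.15), 13.8 CPM of Cdt1 (others 2.3 to 7.52), 71 CPM of Dnmt1 (others 24.6 to 40.3), 10.2 CPM of Mcm5 (others 0 to 4.83) and 12.8 CPM of Rrm2 (others 0.789 to 3.76).

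In G6PCp, Mcm10 was at 136 CPM in s31 (others 36.9 to 74.3). In G6PC library s19 had 13.3 CPM of Mcm2 (others 1.74 to 4.91), 27.6 CPM of Mcm7 (others 8.59 to 17.5) and 24.9 CPM of Pola1 (others 8.36 to 15.7), s17 had 5.9 CPM of Cdc6 (others 0.398 to 2.76), and s21 was the low one for Rpa2 at 21.8 CPM (others 33 to 41.8). In WT library s7 had 3.01 CPM of Cdc6 (others 0 to 0.903) and 7.02 CPM of Mcm2 (others 1.93 to 4.06), and s1 had 16.6 CPM of Pola1 (others 8.81 to 11.9).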

How the results depend on the processing

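No member called by edgeR with all libraries had a fold change of the other sign in that comparison under another setting. Fold changes that did not pass could change sign. Without s13, 15 of 29 members were positive in WTp against WT, in place of 23. No paired analysis was possible because each library number in the labels belongs to 1 library only and none is shared between groups. The choices without s13 and without the 4 G6PCp libraries were made after seeing the data. The number of members called in G6PCp against G6PC (1) was 3 with library size as the only scaling, 2 with DESeq2, 3 with limma-voom, 2 with limma on the normalized table and 0 without s29, s30, s32 and s33, with or without s13. It was 2 in WTp against WT with DESeq2 (in place of 1), and 2 in G6PC against WT without all 5 libraries (in place of 1). In G6PCp against WTp (4) it was 2 with the compared groups alone, 1 without the 4 libraries and 9 without s13. In G6PCp against WT (9) it was 1 without the 4 libraries and 2 without all 5. Genes called in G6PCp against G6PC (751) were 96 without the 4 and 109 without all 5, and in G6PCp against WT (1337) 300 and 320. Genes called in the difference of the shChREBP effects (5) were 12 with no filter, 35 with library size only, 8 without robust estimation, 76 with DESeq2, 0 with limma on the normalized table, 50 without the 4, 22 without s13 and 55 without all 5. The cause of these shifts was not tested.

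Leaving out each library in turn, genes called were 519 to 857 in G6PCp against G6PC, 291 (without WT library s2) to 607 in WTp against WT, 251 to 340 in G6PC against WT, 804 to 1249 in G6PCp against WTp, 974 to 1393 in G6PCp against WT and 2 to 22 (without s13) for the difference. Members called were 1 to 4, 1 to 2, 1 to 1, 3 to 9, 5 to 11 and 0 to 0 in the same order. The log2 difference of the summed level was 0.18 to 0.26, 0.06 to 0.16, 0.11 to 0.20, 0.20 to 0.32 and 0.34 to 0.39 for the 5 group comparisons. With library size as the only scaling the median over all genes in G6PCp against G6PC was 0.11 on the log2 scale, and 75.9% of calls were higher. Depth limits the 19 low genes, and a miss there is no sign of equal levels.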
